A study of Mus musculus with 7 samples.

Results

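Imprinted genes are expressed mainly from the maternal or the paternal copy, and 40 of them were followed in the RNA of mouse sperm. Members were the probe sets with exactly 1 gene symbol, matching a list of imprinted genes, and for genes with several probe sets that with the highest mean over the 7 arrays was kept. Of the 40 genes, 33 were found among the 23493 probe sets with 1 symbol, which cover 22154 symbols. H19, Snrpn and Rtl1 were annotated only on probe sets that list several symbols, and Nespas, Airn, Slc22a3 and Zrsr1 had no entry in the annotation used here. Of the 33 genes, 13 were classed as maternally and 18 as paternally expressed, and Gnas and Grb10, which switch allele with the transcript or tissue, as neither. The classes do not hold in every tissue. Ube3a, classed as maternally expressed, is expressed from both copies in most cells other than neurons. The arrays held sperm of C57BL/6 mice (1 array, a pool of 5 males), of KDM1A transgenic males named TG3 (3 arrays, 4 males each) and of littermates without the transgene named nonTG3 (3 arrays, 4 males each). KDM1A is a histone demethylase. The transgene was injected into C57BL/6 zygotes, came through a pair of female founders, and was then passed on by heterozygous males mated with C57BL/6 females up to generation 3. The sources used here do not name the transgene's promoter, the founder behind each pool or the age of the males. TG3 and nonTG3 together are called the line, and the C57BL/6 values have no replicates.

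Imprinting rests on DNA methylation that is laid down on 1 parental copy in the germ line, in sperm at a few loci and in oocytes at most. After fertilisation the mark is kept on that copy, among other ways by the zinc finger protein ZFP57, which binds methylated TGCCGC and brings in TRIM28. Many imprinted genes act on growth of the fetus and placenta, where Igf2 promotes growth while Igf2r, Cdkn1c, Phlda2 and Grb10 restrain it. A mature sperm carries a single paternal-type genome and makes little RNA of its own, so its RNA comes largely from earlier germ cells. An array intensity does not tell which allele an RNA came from.

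Promoters of imprinted genes are shown first, because imprints often lie in CpG-rich DNA at or near a promoter and because the genes below carry the largest differences from C57BL/6 (Ube3a, Mcts2), the highest reading (Zdbf2), several copies of the motif described next (Zdbf2, Mest) or a shared start region (Peg3). RefSeq windows of build GRCm38.p6, from 250 bases before to 50 bases after a gene's start, were found for 28 of the 33 genes, in 41 windows. The motif TGCCGC was searched on both strands, where it reads GCGGCA on the other strand. It was present in 11 of the 41 windows (26.8%), against 11.6% of all 32851 windows. At least 2 copies were present in 3 windows, 1 window of Zdbf2 and a pair of overlapping windows of Mest. The median number of CpG was 17 per window in these genes and 7 in all windows. The motif itself contains a CpG, and its share among windows of like CpG number was not measured. Among paternally expressed genes 7 of 21 windows held the motif, both overlapping windows of Mest included, and among maternally expressed genes 3 of 14. No methylation was measured here, and a match is a match of letters. Where a gene had several windows, that with most copies of the motif was chosen for printing. Zdbf2 also had a window of 38 CpG and Mest a window of 8 CpG, each with 0 copies. The stretches upstream of 5 genes are printed 5′ to 3′ on the strand of the gene, with the motif on either strand in capitals.
Ube3a, chr7:59228500-59228749, plus strand: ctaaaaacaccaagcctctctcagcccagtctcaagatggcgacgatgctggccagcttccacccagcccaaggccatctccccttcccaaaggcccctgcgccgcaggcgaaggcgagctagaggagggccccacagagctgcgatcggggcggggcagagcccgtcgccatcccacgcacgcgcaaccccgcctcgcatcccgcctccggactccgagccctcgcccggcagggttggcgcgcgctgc
Mcts2, chr2:152686898-152687147, plus strand: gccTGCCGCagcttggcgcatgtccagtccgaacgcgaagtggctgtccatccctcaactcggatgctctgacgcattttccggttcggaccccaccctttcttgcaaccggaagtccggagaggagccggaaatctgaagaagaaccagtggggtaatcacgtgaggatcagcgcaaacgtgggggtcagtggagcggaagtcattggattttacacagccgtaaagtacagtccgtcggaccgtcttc
Zdbf2, chr1:63200108-63200357, plus strand: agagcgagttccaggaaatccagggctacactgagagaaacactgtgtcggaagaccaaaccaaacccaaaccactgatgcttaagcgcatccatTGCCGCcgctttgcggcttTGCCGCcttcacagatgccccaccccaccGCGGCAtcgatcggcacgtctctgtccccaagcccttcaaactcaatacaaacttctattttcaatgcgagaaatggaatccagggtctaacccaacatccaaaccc
Mest, chr6:30737800-30738049, plus strand: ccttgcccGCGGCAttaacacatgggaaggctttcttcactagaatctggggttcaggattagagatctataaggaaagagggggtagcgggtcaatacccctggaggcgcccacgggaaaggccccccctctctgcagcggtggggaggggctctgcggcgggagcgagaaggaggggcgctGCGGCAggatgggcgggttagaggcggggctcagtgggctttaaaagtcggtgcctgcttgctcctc
Peg3, chr7:6730420-6730582, minus strand: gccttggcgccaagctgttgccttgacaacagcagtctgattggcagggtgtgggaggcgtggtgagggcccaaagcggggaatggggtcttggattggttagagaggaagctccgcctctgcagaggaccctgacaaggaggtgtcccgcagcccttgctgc
The Peg3 stretch is the whole of the 163 bases between the starts of Peg3 and Usp29, which point away from each other, and the windows of these genes share 263 bases. Ube3a, the gene that passed the test below, had 24 CpG and 0 copies of the motif in its 250 bases, and Mcts2 had 20 CpG and 1 copy.

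The arrays read sperm RNA. The mean of 13 markers of sperm and spermatids, such as protamines, lay between 8.12 and 8.36 log2 units in the line and at 9.46 on the C57BL/6 array. Of them 12 or 13 lay above the array median, which ran from 3.52 to 3.61. Markers of other cells were set against the share of all probe sets above the array median, 55.0% to 55.7%. Of 16 Sertoli and Leydig markers 13 lay above the median on C57BL/6 and 6 or 7 on the line's arrays, of 12 markers of epididymal epithelium 8 or 9 did, of 16 markers of fibroblasts, muscle and vessels 11 to 14 did, and of 12 leukocyte markers 4 or 5 did. The Sertoli and Leydig markers in the line and the leukocyte markers thus lay below the share of all probe sets, and the other lists above it. In pooled sperm RNA, fewer cells of a type and less RNA per cell cannot be told apart. Mitochondrially encoded RNAs (10 genes) averaged 8.80 on TG3 replicate 1 and 8.91 on nonTG3 replicate 3, 9.98 on nonTG3 replicate 2 and 11.24 to 11.55 on the other 4 arrays. The first pair was lowest, and nonTG3 replicate 2 lay between it and the rest. Kdm1a, the mouse gene of the transgene's protein, read 5.64 on C57BL/6, 5.06, 5.27 and 5.27 on TG3 and 5.07, 5.27 and 5.27 on nonTG3. TG3 was not higher than nonTG3, and the sources used here do not say whether this probe set reads the transgene.

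Imprinted genes ranged from among the brighter probe sets to among the dimmest. Of the 33 genes 15 lay above the array median on all 7 arrays (45.5%), 14 at or below it on all 7 (42.4%) and 4 on either side. Among all 23493 probe sets tested the shares were 47.0% above and 35.9% at or below. Intensities of different probe sets depend on their probes, so a gene's reading is not a copy number, and whether readings below the array median exceed background was not measured. The spread between replicates was ordinary. The median SD within groups was 0.21 log2 units for the imprinted genes and 0.21 for all probe sets tested. RMA, the authors' summary method, gave many exactly equal values: 12 of the 33 genes had 4 or fewer distinct readings on the line's 6 arrays (36.4%, against 30.9% of all tested).

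With the probe sets kept, the median reading of maternally expressed genes was higher than that of paternally expressed genes. The median of the 13 maternally expressed genes was 4.15 on C57BL/6, 4.05, 4.28 and 4.12 in TG3 (replicates in order), and 4.19, 3.88 and 3.82 in nonTG3. The median of the 18 paternally expressed genes was 3.44 on C57BL/6, 3.55, 3.36 and 3.46 on TG3, and 3.44, 3.35 and 3.65 on nonTG3. The maternal median lay above the paternal one on 7 of 7 arrays. The gap ran from 0.17 (nonTG3 replicate 3) to 0.93 (TG3 replicate 2) log2 units. All arrays read the same probe sets, so their agreement does not replicate the gap. On TG3 replicate 1 and nonTG3 replicate 3 the order depended on which Ube3a probe set was kept. The other Ube3a probe set read 3.44 and 3.17 there, below the paternal medians. On each array the median of all probe sets tested, 3.73 to 3.80, lay between both classes. The gap was 0.51, 0.93 and 0.67 on TG3 and 0.75, 0.54 and 0.17 on nonTG3, so the groups overlapped. Of the maternally expressed genes 7 of 13 (53.9%) lay above the array median on all 7 arrays, and of the paternally expressed genes 7 of 18 (38.9%). Of all probe sets tested 47.0% did. At or below it on all 7 arrays lay 6 of 13 (46.2%) and 8 of 18 (44.4%), against 35.9% of all probe sets. The classes thus held similar shares of dim genes. With so few genes a class median is the reading of 1 gene or the mean of a pair, so the gap describes these probe sets and was given no test.

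**Figure D1:**
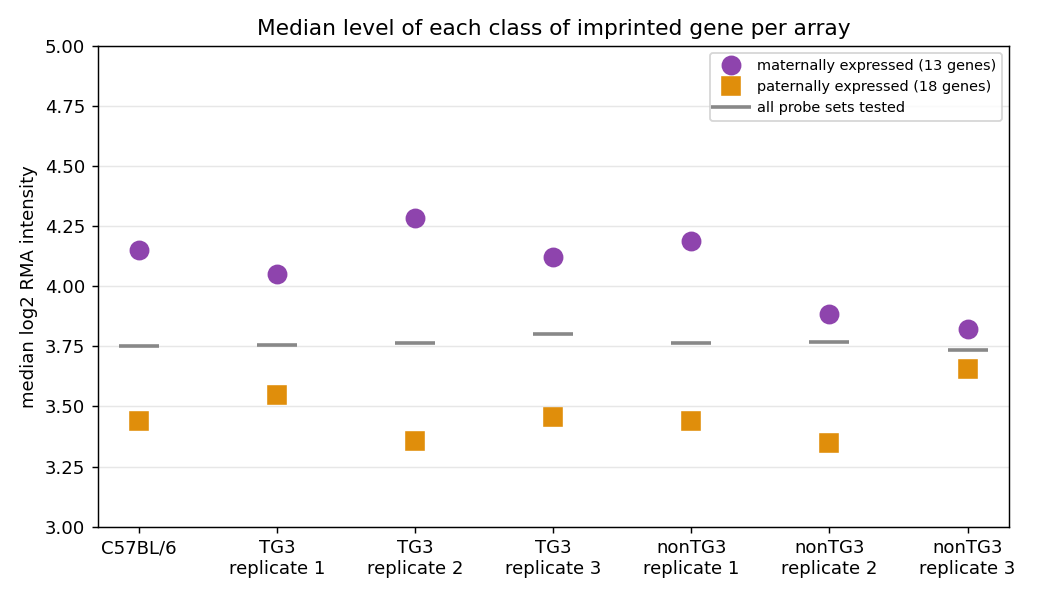
Median log2 RMA intensity of the 13 maternally expressed genes (circles), the 18 paternally expressed genes (squares) and all 23493 probe sets tested (bars) on each of the 7 arrays; the axis does not start at 0. The circles lie above the squares on every array, by 0.17 to 0.93 log2 units, with the smallest gap on nonTG3 replicate 3.

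The genes whose imprint is set in sperm include the growth factor gene Igf2, the Dlk1-Dio3 domain and Rasgrf1, which encodes an activator of Ras. Igf2 read 4.26 on C57BL/6, 4.26, 4.15 and 4.75 in TG3, and 3.66, 4.21 and 4.43 in nonTG3, here and below in the order of replicates 1 to 3. It lay above the array median on every array, and TG3 and nonTG3 overlapped. Rasgrf1 read 4.65 on C57BL/6, 4.59, 5.02 and 5.34 on TG3, and 5.05, 4.82 and 4.11 on nonTG3. Its range over the line, 1.23 log2 units, was among the 3 widest of the 33 genes. In the Dlk1-Dio3 domain, the long noncoding RNA Meg3 is expressed from the maternal copy, and Dlk1, a membrane protein of the Notch ligand family, and Dio3, an enzyme that inactivates thyroid hormone, from the paternal copy. Meg3 read 4.38 on C57BL/6, on all 3 TG3 arrays and on nonTG3 replicate 3, and 4.19 and 4.04 on nonTG3 replicates 1 and 2. Dlk1 read 2.76 on C57BL/6, 3.23, 2.95 and 3.01 on TG3, and 2.75, 2.78 and 2.95 on nonTG3, all below the array median. Dio3 also lay below it on every array, between 2.02 and 2.77.

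Of the domain controlled by the noncoding RNA Kcnq1ot1, which silences neighbours on the paternal copy, 4 of 7 genes lay above the array median on all arrays. Cd81, a tetraspanin of the cell surface, read 5.47 on C57BL/6, 5.76, 5.47 and 4.99 on TG3, and 5.44, 4.58 and 5.80 on nonTG3. Cdkn1c, an inhibitor of cyclin-dependent kinases, read 4.33 on C57BL/6, 5.22, 4.67 and 4.12 on TG3, and 4.61, 4.84 and 5.32 on nonTG3. Both varied by over 1 log2 unit within the line, more than the groups differed. Kcnq1, a potassium channel subunit, read 3.82 to 4.75 over the 7 arrays, and Kcnq1ot1, transcribed from within Kcnq1 on the other strand, read 3.75 to 4.38. Slc22a18, a transporter of the organic cation family, read 3.48 on C57BL/6, 3.16, 3.48 and 3.48 on TG3, and 3.48, 3.55 and 3.48 on nonTG3, just under the array median. Ascl2, a transcription factor of trophoblast, read 2.85 to 3.45. Phlda2, which limits placental growth, was the dimmest of the 33 genes, at 1.23 on C57BL/6, 1.53, 1.50 and 1.24 on TG3, and 1.55, 1.43 and 1.69 on nonTG3.

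The brightest probe sets belonged to paternally expressed genes at loci of their own. Zdbf2, a zinc finger gene, read 6.81 on C57BL/6, 7.07, 6.55 and 6.38 on TG3, and 6.79, 6.84 and 7.16 on nonTG3, at the 95.5th percentile of all means. Impact, an inhibitor of the kinase GCN2, read 5.95 on C57BL/6, 5.07, 6.13 and 5.97 on TG3, and 6.03, 6.73 and 5.45 on nonTG3. Its range of 1.66 over the line was the largest among the 33 genes. Nnat, a membrane proteolipid of neurons, read 4.52 on C57BL/6, 4.52, 4.52 and 4.53 on TG3, and 4.52, 4.44 and 4.52 on nonTG3, the narrowest range over the line among the 33. Its other probe set read 1.79 to 2.98. Plagl1, a zinc finger regulator of other imprinted genes, read 2.89 on C57BL/6, 2.61, 3.35 and 2.99 on TG3, and 3.20, 2.87 and 2.83 on nonTG3. Mest, a hydrolase-fold protein of mesoderm whose upstream stretch holds 2 copies of the ZFP57 motif, read 1.999 on C57BL/6, 2.31, 2.02 and 2.02 on TG3, and 2.02, 2.06 and 2.02 on nonTG3. Windows with at least 2 copies of the motif thus belonged to a gene with a dim probe set (Mest) and to that with the brightest (Zdbf2). Each of these genes also had a window without the motif, and the start that its probe set reads is not known here.

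In the Snrpn-Ube3a domain, Ube3a, a ubiquitin ligase expressed from the maternal copy in neurons and from both in most other cells, lay above the array median on the probe set kept, while its other probe set read 3.17 to 3.78 over the 7 arrays. Of its paternally expressed neighbours, Mkrn3, a RING finger protein, read 2.54 to 3.25, and the MAGE family genes Ndn and Magel2 read 3.06 to 3.96 and 3.36 to 3.71. At Igf2r-Airn, Igf2r, the receptor that clears IGF2, read 4.15 on C57BL/6, 4.09, 4.28 and 4.15 on TG3, and 4.24, 3.88 and 4.15 on nonTG3. Slc22a2, an organic cation transporter of the same domain, read 2.42 on C57BL/6, 2.56, 2.59 and 2.56 on TG3, and 2.56, 2.56 and 2.67 on nonTG3. At Peg10-Sgce, Ppp1r9a, the actin-binding protein neurabin, read 5.17 on C57BL/6, 5.22, 5.22 and 5.20 on TG3, and 5.28, 5.55 and 5.17 on nonTG3. Of the other 3 genes there, Peg10, derived from a retrotransposon and needed for the placenta, read 3.53 to 3.74, Sgce, a sarcoglycan, 2.81 to 3.19, and Asb4, an ankyrin repeat protein, 3.01 to 3.57. At Peg3, the zinc finger gene Peg3 read 2.94 to 3.32, its neighbour Usp29 1.25 to 1.57 and Zim1 2.11 to 2.38. Grb10, an adaptor that dampens insulin and IGF receptors, read 3.44 on C57BL/6, 3.74, 3.13 and 3.44 on TG3, and 3.44, 3.64 and 3.57 on nonTG3.

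**Figure D2:**
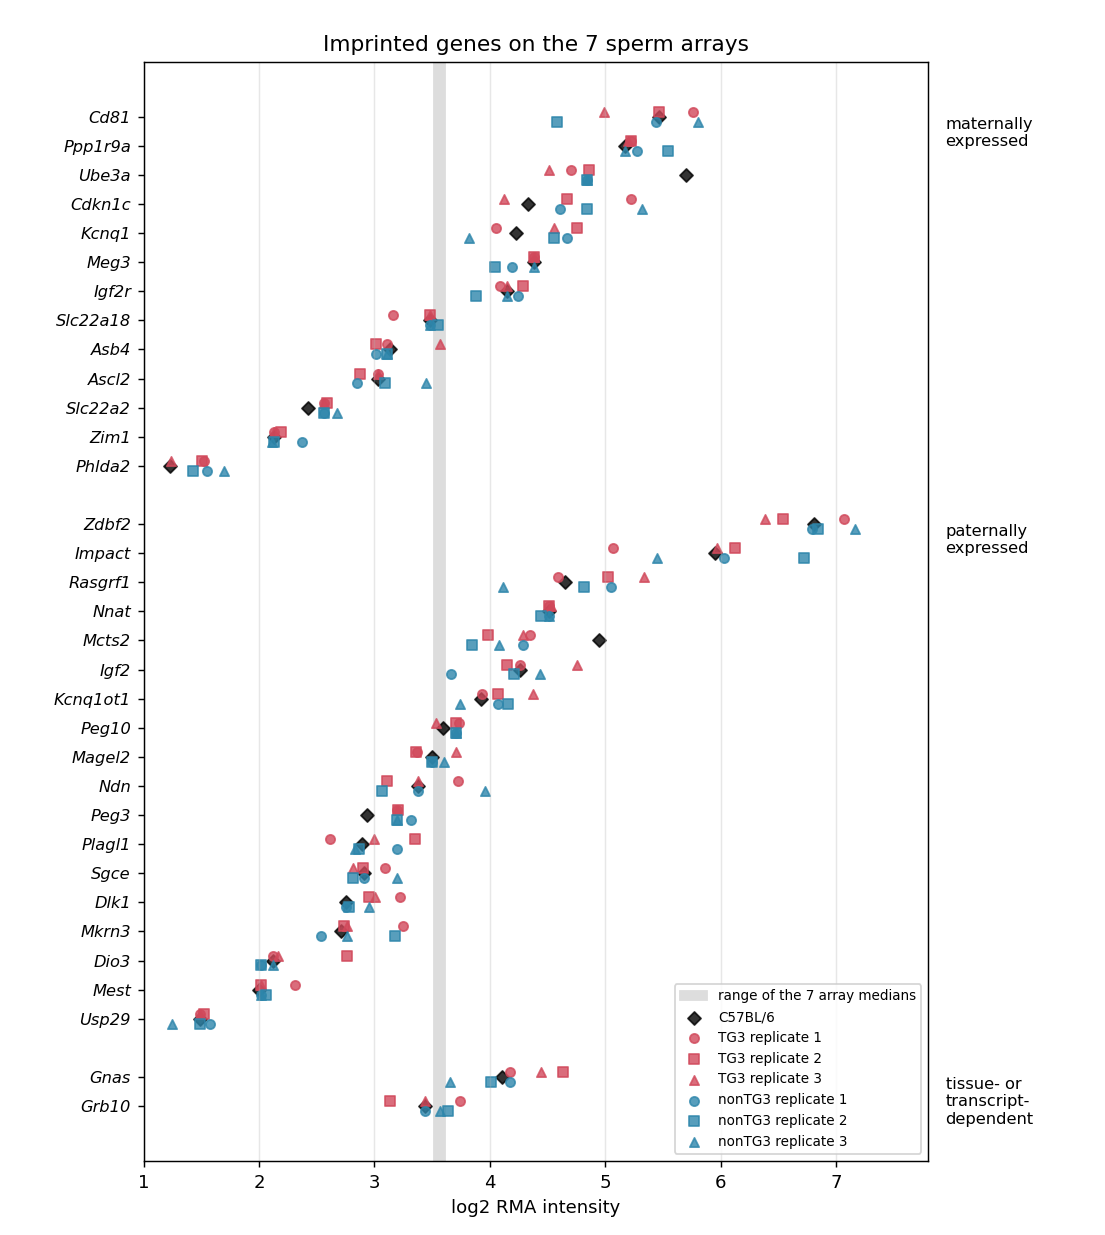
Log2 RMA intensity of the 33 imprinted genes (rows, grouped by expressed allele and ordered by mean) on the 7 arrays; diamonds are C57BL/6, red symbols TG3 and blue symbols nonTG3, with a symbol shape per replicate, and the grey band spans the array medians of 3.52 to 3.61. Zdbf2 is brightest and Phlda2 dimmest, and the C57BL/6 diamond stands apart to the right for Ube3a and Mcts2.

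TG3 against nonTG3 asks whether carrying the transgene goes with other levels of imprinted RNAs among littermates. No imprinted gene passed the test. By limma 0 of 33 had an adjusted p under 0.05, as did 0% of all probe sets tested, and 1 of 33 had an unadjusted p under 0.05, where 2.38% of all probe sets did. In 0 of 33 genes did the 3 TG3 arrays lie apart from the 3 nonTG3 arrays, against 4.12% of all probe sets. The median change was 0.02 log2 units for the imprinted genes and 0.0045 for all probe sets, and 17 genes were higher and 16 lower. The median was -0.06 for maternally expressed genes (5 higher, 8 lower) and 0.05 for paternally expressed genes (11 higher, 7 lower), both smaller than the SD of class medians between arrays of a group, 0.16 and 0.13. The precision differed between genes: the 95% interval for Nnat ran from -0.15 to 0.20, and that for Impact from -1.39 to 0.70.

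The smallest unadjusted p belonged to Gnas, which encodes the stimulatory G protein alpha subunit and, from other promoters, transcripts of either parental allele. Gnas read 4.10 on C57BL/6, 4.18, 4.64 and 4.44 on TG3, and 4.18, 4.01 and 3.66 on nonTG3. The mean was 4.42 ± 0.23 for TG3 and 3.95 ± 0.27 for nonTG3 (SD, n = 3 each), and the groups met at 4.18. The difference of 0.47 had a 95% interval of 0.01 to 0.93 and a limma adjusted p of 0.923. The sources used here do not say which Gnas transcripts the probe set reads. Markers of epididymal epithelium leaned the same way: 10 of 12 were higher in TG3, against 51.0% of all probe sets, and 0 were called. Their means were 5.45, 5.68 and 5.55 on TG3 and 5.64, 5.06 and 4.95 on nonTG3, which overlapped. Their part in the readings of imprinted genes was not tested. Next were Dlk1, at 3.06 ± 0.14 for TG3 and 2.83 ± 0.11 for nonTG3 (SD, n = 3 each), and Meg3, at 4.38 on each TG3 array and 4.21 ± 0.17 for nonTG3 (SD, n = 3), each at a limma adjusted p of 0.923. Lower means in TG3 with the smallest p were those of Ube3a (-0.16, interval -0.42 to 0.11), Zdbf2 (-0.27, interval -0.79 to 0.26) and Slc22a18 (-0.13, interval -0.42 to 0.15). Single arrays decided these sizes. Slc22a18 differed by -0.02 without TG3 replicate 1, Ube3a by -0.07 without TG3 replicate 3 and by -0.24 without TG3 replicate 2. Zdbf2 differed by -0.47 without TG3 replicate 1, and by -0.12 and -0.15 without TG3 replicate 3 or nonTG3 replicate 3. Of the higher genes, Dlk1 differed by 0.15 without TG3 replicate 1, and Meg3 by 0.09 and 0.26 without nonTG3 replicates 2 or 3. The second probe set of Ube3a differed by 0.11 in the opposite direction.

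All 5 genes with an imprint set in sperm had a higher mean in TG3 than in nonTG3: Igf2 by 0.29, Rasgrf1 by 0.32, Dio3 by 0.30, Dlk1 by 0.23 and Meg3 by 0.17 log2 units. Of all probe sets tested 51.0% were higher in TG3. None of the 5 passed the test (limma adjusted p of 0.923 for each), each had a 95% interval that included 0, and in each the TG3 and nonTG3 arrays met or overlapped. All 10 mitochondrially encoded genes were also higher in TG3, by a median of 0.40 with 0 called, and Rasgrf1 was among the genes that read low on both arrays of lowest mitochondrial RNA. The part of this in the 5 differences was not tested. Dlk1, Meg3 and Dio3 lie in 1 domain, so these genes are not independent of each other. Over the alternatives that measured all 5 genes the median change was 0.17 to 0.35, and 5 of 5 stayed higher. Several alternatives could not move these differences, so their agreement was fixed in advance. Other priors, all probe sets of the table, only the groups compared, the replicate block and the lowest-mean probe set left the median at 0.29. The range comes from other normalizations, array weights and omitted arrays. Of the 27 genes with an imprint set in oocytes 12 were higher and 15 lower, with a median of -0.04. Against the C57BL/6 array the medians of the 5 genes were 0.23 for TG3 and -0.07 for nonTG3, and these comparisons share the C57BL/6 array.

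**Figure D3:**
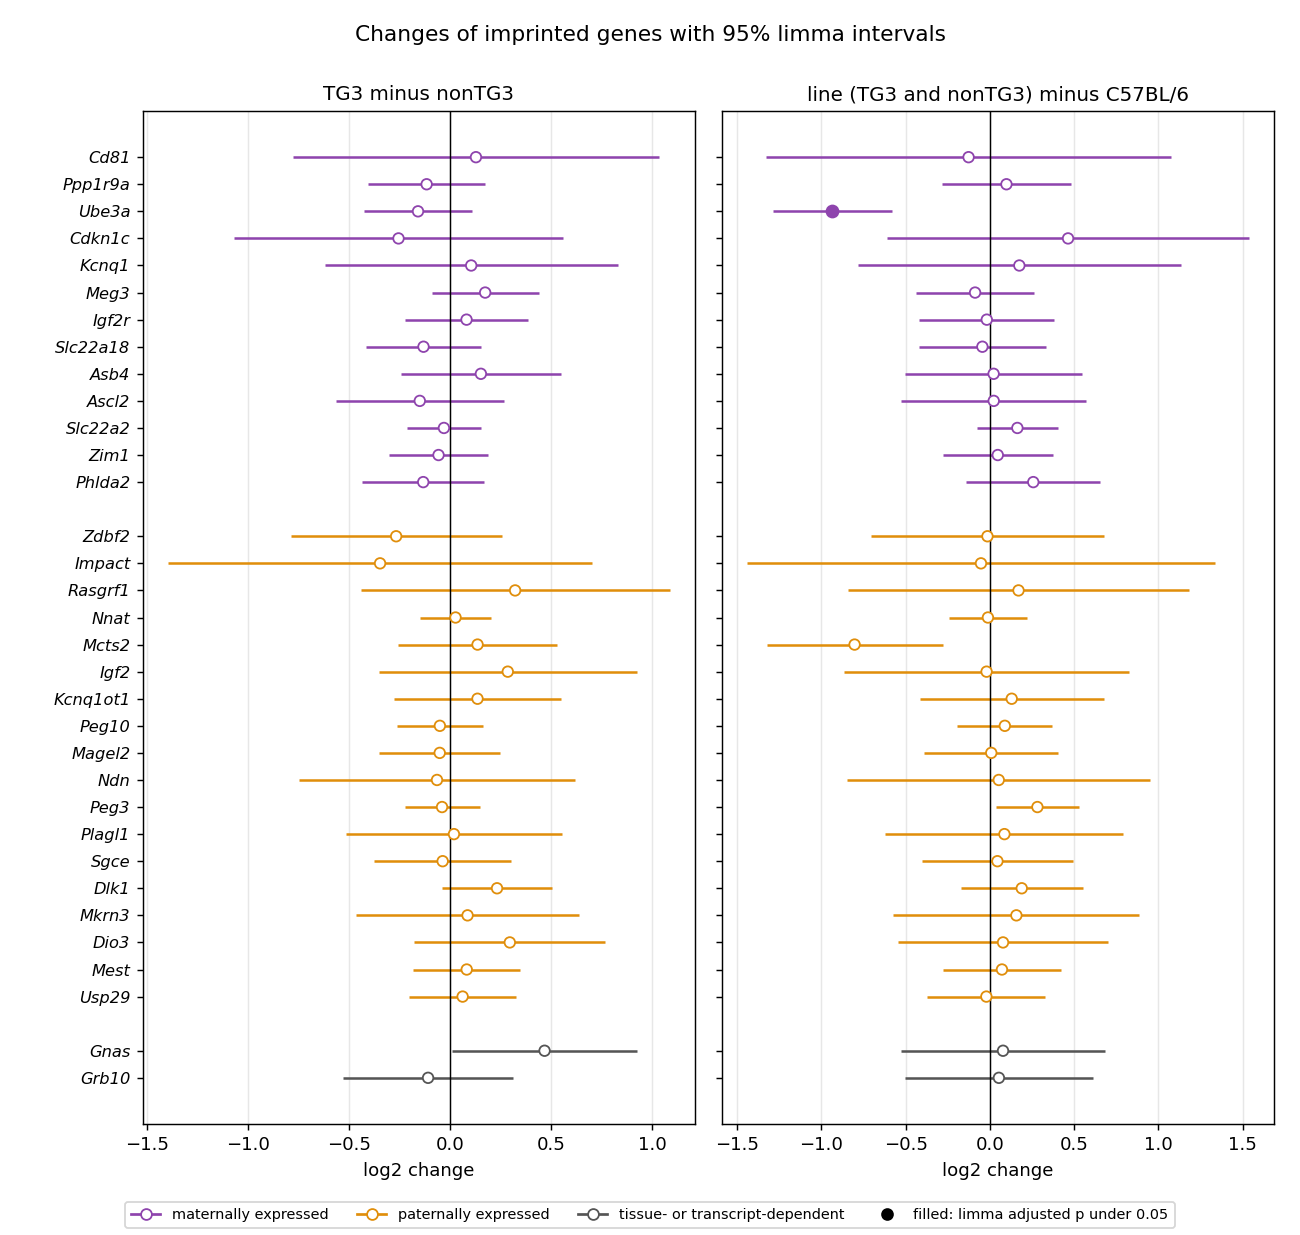
Log2 change of each imprinted gene with its 95% limma interval, for TG3 minus nonTG3 (left) and for the line minus the C57BL/6 array (right); rows are as in the plot of readings, colours give the expressed allele, and a filled symbol marks an adjusted p under 0.05. Ube3a in the right panel is the only filled symbol, and on the left the interval of Gnas alone leaves out 0.

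The line against the C57BL/6 array asks how sperm of the colony differs from sperm of outside mice. Of 33 imprinted genes 1 was called, Ube3a, which was lower in the line (3.03%, against 3.02% of all probe sets tested). Ube3a read 5.70 on C57BL/6, 4.70, 4.86 and 4.51 on TG3, and 4.85 on each nonTG3 array. All 6 arrays of the line lay below C57BL/6. The mean of the line was 4.77 ± 0.14 (SD, n = 6), a 1.91-fold lower intensity (change -0.93, 95% interval -1.29 to -0.58, limma adjusted p = 0.0327). The 3 nonTG3 readings were equal, so the gene's own spread in this test comes from TG3, and limma adds to it a prior from all probe sets. Leaving out a single array ended the call in 4 of 6 cases: the adjusted p rose to 0.0811 when TG3 replicate 1 was omitted, and to 0.0905, 0.101 and 0.0889 when nonTG3 replicates 1, 2 or 3 were. The change itself ran from -0.98 to -0.89 in these 6 fits. The other Ube3a probe set read 3.78 on C57BL/6, 3.44, 3.29 and 3.76 on TG3, and 3.47, 3.54 and 3.17 on nonTG3, a change of -0.34 at a limma adjusted p of 0.743.

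Mcts2, a retrogene copy that lies within the gene H13 and whose sequence resembles its parent Mcts1, showed the next largest difference. It read 4.94 on C57BL/6, 4.35, 3.98 and 4.29 on TG3, and 4.29, 3.85 and 4.08 on nonTG3. All 6 arrays of the line lay below C57BL/6, with a change of -0.80 (95% interval -1.32 to -0.28), and the test was not passed (limma adjusted p = 0.163). The sources used here do not say whether the probe set also reads Mcts1. Peg3 read 2.94 on C57BL/6, 3.20 on each TG3 array and 3.32, 3.20 and 3.20 on nonTG3, a change of 0.28 (limma adjusted p = 0.310). Slc22a2 and Phlda2 followed, at 0.16 and 0.26, and Meg3 at -0.09 had the third smallest p among lower genes. Ube3a and Mcts2 were the 2 genes whose C57BL/6 reading exceeded every array of the line (6.06%, against 14.3% of all probe sets), and 4 genes, Peg3, Mest, Phlda2 and Slc22a2, read lower on C57BL/6 than on every array of the line (12.1%, against 18.2%). The median change was 0.05 for the imprinted genes and 0.04 for all probe sets, 0.02 for maternally and 0.06 for paternally expressed genes.

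Carriers and littermates were also set against C57BL/6 separately, and both contrasts share that array. In TG3 Ube3a was called, 2.02-fold lower than C57BL/6 (limma adjusted p = 0.0353), as 1 of 33 genes (3.03%, against 2.53% of all probe sets). In nonTG3 it was 1.81-fold lower at a limma adjusted p of 0.0603, and 0 of 33 genes were called (against 2.53% of all probe sets). An unadjusted limma p under 0.05 was reached by 3 of the 33 genes and by 2745 of all 23493 probe sets. The difference between TG3 and nonTG3 for Ube3a, -0.16, was itself not called. Without TG3 replicate 3 the nonTG3 contrast called Ube3a (limma adjusted p = 0.0453), and the TG3 contrast called it in 1 of 6 fits without an array, with adjusted p up to 0.101 (without nonTG3 replicate 2). Marker lists also differed between the line and C57BL/6, in both directions. Of all 23493 probe sets 9148 were lower in the line, 670 of them called, and 14282 (60.8%) were higher, 40 of them called. Of the 13 sperm and spermatid markers 12 were lower in the line, 6 of them called, with a median change of -0.97, and of 16 Sertoli and Leydig markers 10 were lower, 6 of them called. Higher in the line were 11 of 12 markers of epididymal epithelium, 1 of them called, and 13 of 16 markers of fibroblasts, muscle and vessels, 0 called. The part of these cells in the Ube3a difference was not tested.

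TG3 replicate 1 and nonTG3 replicate 3, the arrays of lowest mitochondrial RNA, lay on the same side of the other 4 arrays of the line for 10 of the 33 genes. Both were higher for Zdbf2, Cd81, Cdkn1c, Ndn and Sgce (5 of 33, 15.2%, against 13.9% of all probe sets). Cdkn1c read 5.22 and 5.32 on these arrays and 4.12 to 4.84 on the other 4, and Ndn read 3.72 and 3.96 against 3.06 to 3.38. Both were lower for Impact, Rasgrf1, Kcnq1, Kcnq1ot1 and Plagl1 (5 of 33, 15.2%, against 9.93%). Impact read 5.07 and 5.45 against 5.97 to 6.73, and Kcnq1 4.05 and 3.82 against 4.55 to 4.75. On the same arrays 16 markers of fibroblasts, muscle and vessels averaged 5.38 and 5.19, against 4.39 to 4.70 on the other 4 and 4.51 on C57BL/6, and 13 and 14 of 16 lay above the array median, against 11 or 12. Sperm and spermatid markers averaged 8.18 and 8.32, within the 8.12 to 8.36 of the other 4. The part of these cells in the readings of imprinted genes was not tested. Without both arrays 0 imprinted genes were called in any contrast, as were 0 of all probe sets.

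**Figure D4:**
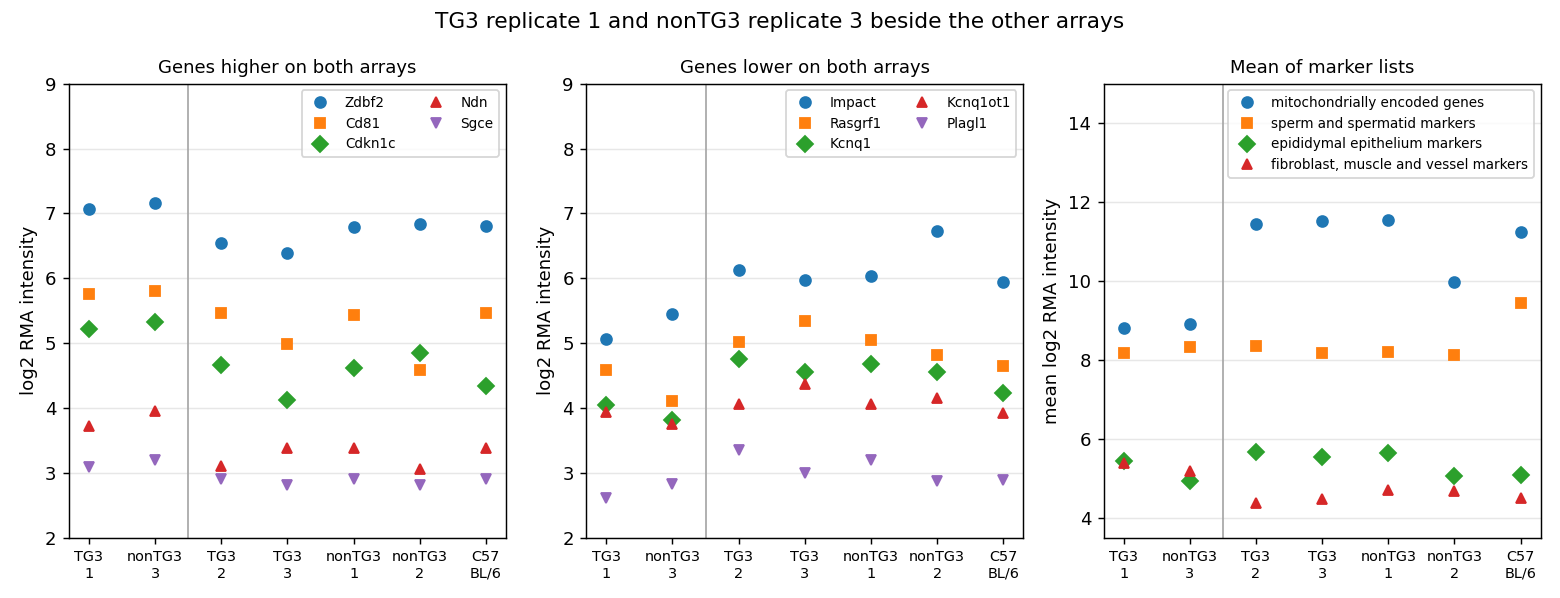
Log2 RMA intensity of the 5 imprinted genes that were higher (left) and the 5 that were lower (middle) on both TG3 replicate 1 and nonTG3 replicate 3 than on the 4 remaining arrays of the line; the right panel, on another scale, gives the mean of 4 marker lists. The vertical line separates the pair from the other arrays. Mitochondrially encoded genes averaged 8.80 and 8.91 on the pair, and markers of fibroblasts, muscle and vessels 5.38 and 5.19.

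Of 48 further imprinted genes 42 were found, with 0 called between TG3 and nonTG3, as were 0% of all probe sets (median -0.01, 19 higher and 23 lower). The smallest p there was that of Nap1l5, a nucleosome assembly protein relative, which read 3.68 on C57BL/6, 4.12, 4.21 and 4.08 on TG3 and 3.60, 3.80 and 3.44 on nonTG3. The groups did not overlap, as in 1 of the 42 genes (2.38%, against 4.12% of all probe sets), and the limma adjusted p of the 0.52 difference was 0.923. Peg12 was next, at 4.56 on C57BL/6, 4.77, 4.93 and 5.75 on TG3, and 3.96, 4.28 and 4.80 on nonTG3, with overlapping arrays and a limma adjusted p of 0.923. Against C57BL/6 1 of the 42 was called (2.38%, against 3.02% of all probe sets), Qpct, an enzyme that forms pyroglutamate, which read 4.00 on C57BL/6, 3.11, 2.81 and 3.13 on TG3, and 2.97, 3.11 and 3.14 on nonTG3. The change was -0.96 at a limma adjusted p of 0.0394. Qpct lost its call in 5 of the 6 fits without 1 array, those without TG3 replicates 1 or 3 or any nonTG3 replicate, with adjusted p up to 0.113. Gatm, which makes the precursor of creatine and was chosen after its values were seen, read 3.94 on C57BL/6 and 2.37 ± 0.28 (SD, n = 6) over the line, a change of -1.57 that was not called (limma adjusted p = 0.0648). It was called, making 2 of 42, after repeated quantile normalization, median centring or cyclic loess. Of all 23493 probe sets 632, 745 and 868 were called under these settings, in that order.

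Regulators of imprints were also compared. Of 34 listed 33 were found, and 0 were called in any of the 4 contrasts. Of all probe sets 0% were called between TG3 and nonTG3, 3.02% for the line against C57BL/6, and 2.53% for each group against it. For the line against C57BL/6, 18 regulators were higher and 15 lower. There 5 of the 33 had an unadjusted limma p under 0.05, as did 2877 of all 23493 probe sets. Between TG3 and nonTG3 the median was -0.04 (12 higher, 20 lower) and 0 had an unadjusted p under 0.05. Ehmt2, a histone H3 lysine methyltransferase, read 5.55 on C57BL/6, 5.74, 6.13 and 5.61 on TG3, and 5.40, 5.61 and 5.38 on nonTG3. Zfp42, a zinc finger protein of early embryos, read 4.33 on C57BL/6, 4.22, 4.11 and 3.84 on TG3, and 4.11, 4.66 and 4.64 on nonTG3. Both had the smallest p of the list, at a limma adjusted p of 0.923 each. The groups met for Ehmt2 and overlapped for Zfp42. Zfp57 read 4.30 to 4.35 in the line and 4.44 on C57BL/6. Ctcfl, the germline relative of the insulator protein CTCF, read exactly 2.98 on all 6 arrays of the line.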

How the data were processed

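Pooled sperm RNA was amplified with Affymetrix's SensationPlus WT kit, per the labels' protocols. The authors deposited log2 intensities after RMA (background correction, normalization across arrays, 1 summary per probe set); R 3.1.0, oligo, RMA and limma were used per the submitters' processing notes. Filters, scan batches and the array's genome build are not stated in these sources. Of 33604 probe sets, 23493 had 1 symbol in the platform annotation, 1801 several and 8310 none; Entrez identifiers matched 23300 to RefSeq (GRCm38.p6) and changed 0 symbols. For Ube3a, Nnat and Plagl1, with several probe sets, that with the highest mean was kept.

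One limma 3.58.1 model (R 4.3.3) with group means covered the 23493 probe sets and 7 arrays (4 residual and 1.65 prior degrees of freedom), with Benjamini-Hochberg adjustment over all of them and calls at an adjusted p under 0.05. The lone C57BL/6 array is assumed to vary like the others. Since no label says that each male entered only 1 pool, a p-value reflects only how these pools vary, and the number of arrays limits precision. Parental classes and lists come from general knowledge of mouse imprinting. Members and lists were chosen with earlier results of these data known. Named with values on every array were called genes, in each contrast the 3 smallest p per direction, the brightest gene of each domain and the 3 widest ranges over the line; of other lists, called genes and the 2 smallest p between TG3 and nonTG3. Other genes named were chosen after their values were seen. The model was tested on simulated data. TG3 and nonTG3 share replicate numbers, which the main model did not use. Deviations of same-numbered arrays from their group means correlated at -0.45, 0.02 and -0.40, and those of TG3 replicate 1 and nonTG3 replicate 3 at 0.55. Deviations within a group sum to 0, so a shift shared by that pair lowers the other correlations. This check therefore cannot tell whether the numbers pair the pools. Alternatives were other normalizations, priors, filters, probe sets, thresholds and subsets of arrays. Figures were drawn with matplotlib 3.10.9.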

Additional observations from a re-analysis of the deposited data

How the results depend on the processing

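Between TG3 and nonTG3 0 imprinted genes were called under each of the 19 alternatives, with and without the replicate number as a block. Under each of them 0 of all probe sets were called too, so this count does not set imprinted genes apart. Against C57BL/6 the call of Ube3a decided each count. The count for the line, 1, was 0 after a repeated quantile normalization, without TG3 replicate 1 and nonTG3 replicate 3 together, with the replicate block (0 imprinted genes and 0 of all probe sets, with 2 residual degrees of freedom) and with the lowest-mean probe set of each gene, and 0 to 1 without single arrays. The count for TG3, 1, was 0 under the same 4 settings and in a fit of only its own groups, and 0 to 1 without single arrays. The count for nonTG3, 0, was 1 with cyclic loess, with array weights and at an adjusted p under 0.1, and 0 to 1 without single arrays. With the lowest-mean probe set, the difference of Ube3a between TG3 and nonTG3 reversed from -0.16 to 0.11. For the lost calls of Ube3a the changes ran from -1.10 to -0.28, and apart from fits with fewer arrays and so fewer degrees of freedom the cause was not tested. Median changes moved by less than the spread between arrays in each alternative, and all but that of paternally expressed genes between TG3 and nonTG3 crossed 0: between TG3 and nonTG3 they ran from -0.02 to 0.11 for the 33 genes, -0.09 to 0.08 for maternally and 0.01 to 0.14 for paternally expressed genes, and for the line against C57BL/6 from -0.01 to 0.07, -0.04 to 0.05 and -0.01 to 0.08. The count of all probe sets called for the line, 710, was 350 to 496 without single arrays, 396 without TG3 replicate 2, and 428, 350 and 438 without nonTG3 replicates 1, 2 and 3. The 14 genes at or below every array median are the least certain, since their signal over background was not measured.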
